A study of Mus musculus with 288 samples.

Results

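Enteroendocrine cells carry a set of transcription factors that set up and keep their hormone-producing state, and 9 of these genes were followed here through single cells of the mouse upper small intestine: Neurod1, Neurog3, Insm1, St18, Fev, Etv1, Foxa1, Foxa2 and Sox4. They were set as a list of names, with earlier results of these data known, and are 9 of the 46078 mouse genes in the table. The cells came from 3 male GLU-Venus mice aged 20 to 21 weeks, in which the proglucagon promoter drives the fluorescent protein Venus, so the sort followed promoter activity of that transgene. The labels give no treatment and no other group. Smart-seq2 libraries of 288 sorted cells labelled L-cells were sequenced in 3 pools of 96 cells, SLX-11175, SLX-11179 and SLX-9703, and each pool was taken as 1 mouse. By the study's methods the first 2 mice also gave non-fluorescent control cells, which the labels do not mark.

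In the intestinal crypt, Neurog3, a basic helix-loop-helix (bHLH) factor, starts the endocrine programme in short-lived progenitors, and Neurod1, another bHLH factor, acts after it. Insm1 and St18 are zinc finger factors, Insm1 a repressor found widely in endocrine cells. Fev and Etv1 belong to the ETS family, Fev being best known from serotonin neurons. Foxa1 and Foxa2 are forkhead factors of gut endoderm that can bind the proglucagon gene, and Sox4 is an HMG-box factor of progenitor cells. bHLH factors bind DNA at the E-box.

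A cell entered when it had at least 20000 reads on mouse genes and at most 20% of them on mitochondrial genes, which 250 cells did (75, 87 and 88 by pool). Pool SLX-9703 was the deep one, with a median of 1975710 reads per passing cell against 52571 and 70726 in the others, and it held 92.2% of all reads of passing cells. Levels are given as CPM, the reads of a gene per 1000000 mouse gene reads of a cell or of a sum. Cells were placed in classes by hormone or marker level: 53 cells with Gcg (proglucagon) at 10000 CPM or more, 25 with Gip (the incretin GIP) at 10000 CPM or more, 64 with Pzp at 100 CPM or more, 54 with none of these but Cck (cholecystokinin) at 1000 CPM or more, and 49 with none of these and Cck under 1000 CPM, called Cck-low. The Gcg, Gip and Pzp classes are together called the endocrine classes. A further 5 cells met more than 1 condition and entered no test. The genes that made the classes are not results. The 6 enteroendocrine markers summed to 604, 951 and 451 CPM in the Cck-low sums of the 3 pools in that order, against 2469 to 41741 CPM in the sums of the 4 other classes, so the labelled cell type did not hold for most of that class. Of its 49 cells, 7 held leukocyte markers at 100000 CPM or more, none of them in the deep pool, and 10 held enteroendocrine markers at 1000 CPM or more. The 11 leukocyte markers summed to 223543, 192174 and 2533 CPM there, against 33.2 to 287 CPM in the 4 other classes, with Cd8a at 0. In the deep pool its 8 enterocyte markers, at 10196 CPM, exceeded the leukocyte sum.

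Of the 5 factors that were higher in the endocrine classes than in Cck-low cells, 3 have an entry among the RefSeq promoters (build GRCm38.p6, 250 bases before the start site), and these are shown as the upstream DNA of the genes the comparison turned on. Printed are the bases outside any gene model on the same strand, 5′ to 3′, with an E-box (CANNTG, which reads the same on both strands) in capitals. Neurod1 lies at chr2:79456786-79456886, Fev at chr1:74885420-74885658 and Foxa2 at chr2:148046970-148047219, all on the minus strand.
Neurod1: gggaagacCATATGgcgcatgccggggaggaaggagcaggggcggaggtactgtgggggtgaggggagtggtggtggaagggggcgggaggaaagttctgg
Fev: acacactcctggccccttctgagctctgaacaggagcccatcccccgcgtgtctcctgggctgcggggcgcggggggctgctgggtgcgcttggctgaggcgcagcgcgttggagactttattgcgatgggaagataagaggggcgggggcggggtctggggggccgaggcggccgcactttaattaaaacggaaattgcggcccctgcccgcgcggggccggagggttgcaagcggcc
Foxa2: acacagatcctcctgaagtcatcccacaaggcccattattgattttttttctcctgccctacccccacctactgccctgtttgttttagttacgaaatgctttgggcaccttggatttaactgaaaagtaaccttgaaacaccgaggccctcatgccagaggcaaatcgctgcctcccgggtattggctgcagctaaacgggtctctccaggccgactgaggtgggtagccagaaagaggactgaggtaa
Neurod1 had 1 E-box in its 250 bases and Fev had none. Foxa2 has 3 entries, of which the printed one had no E-box and 1 of the others, both inside a gene model, had 1, while 66.2% of 32851 promoters of that length held at least 1. In all, 7 of the 9 genes had an entry. Insm1 and St18 had none in the table.

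Neurod1 was among the most abundant of these factors, and its sums in the Gip class were below those of the other endocrine classes, although the edgeR tests between these classes missed the threshold (adjusted p = 0.0723 against Gcg and 0.0735 against Pzp). The gene (ENSMUSG00000034701) lies at chr2:79452521-79456751 on the minus strand in GENCODE M21. Of its exon bases, 13.01% are shared with Cerkl or with the antisense lincRNA Gm26755. Since the library does not mark strand, such reads cannot be assigned to 1 gene. Summed over the cells of each class, Neurod1 stood at 570.5, 635 and 985 CPM in the Gcg class, with pools always in the order given above. In the Pzp class it was at 433, 742 and 1055 CPM, and in the Cck class at 371, 706 and 1293 CPM. In the Gip class the same pools gave 49.9, 213 and 125 CPM. The 3 Gip values lay below all 3 values of each of the Gcg and Pzp classes, as those of 12.6% and 13.6% of all genes did after TMM scaling. Cck-low sums held 38.6, 87.04 and 76.8 CPM, which overlapped the Gip class.

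**Figure D1:**
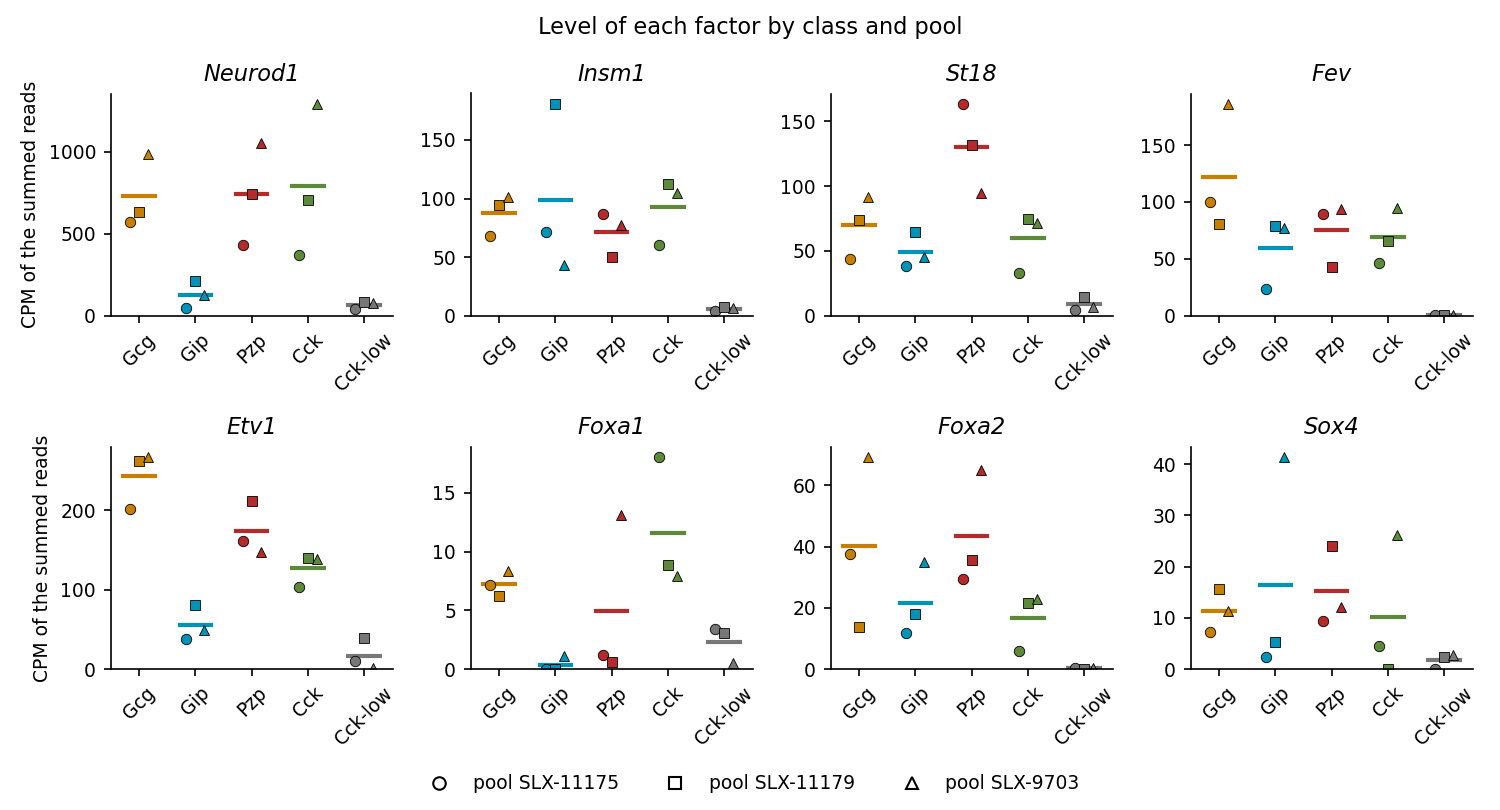
Level of each factor (CPM of the summed reads, linear axis from 0, a scale of its own in each panel) in the Gcg, Gip, Pzp, Cck and Cck-low classes. Points are the 3 pools and the line is their mean. Neurod1 averaged 730 CPM in the Gcg class and 129 CPM in the Gip class, and Fev 0.796 CPM in the Cck-low class.

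Which factors set apart the endocrine classes from Cck-low cells was asked by setting the mean of the Gcg, Gip and Pzp classes against the Cck-low class. Of 8 members tested, 5 rose and none fell (quasi-likelihood test of edgeR on the class sums of each pool, blocked by pool, Benjamini-Hochberg adjusted p under 0.05 over 10724 genes). Of all genes tested, 6.63% were called and 2.6% were called higher, while 2.31% had endocrine-class sums all above the Cck-low sums after TMM scaling. The median log2 fold change was 2.59 over the members and -0.13 over all genes. Of other cell types, 2 of 3 tested goblet markers rose, 5 of 7 enterocyte markers fell and 5 of 5 leukocyte markers fell in the same comparison. Of 2 tested stem and cycling markers 1 fell, Top2a, with a log2 difference of -4.52 (edgeR adjusted p = 0.0223). The 1 Paneth and 1 tuft marker tested were not called. The part of all these markers in the members' differences was not tested. With spike-in reads as library size the median over all genes was 0.50, so the log2 changes are relative to a composition that differed between classes.

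Fev had the clearest difference. Fev (ENSMUSG00000055197, chr1:74881509-74885419, minus strand) was at 99.99, 80.7 and 186 CPM in the Gcg class, 23.8, 78.8 and 76.8 CPM in the Gip class and 89.4, 43.2 and 93.5 CPM in the Pzp class. Cck-low sums gave 0.765, 1.02 and 0.599 CPM, resting on 2, 3 and 7 reads. All endocrine-class sums were above all Cck-low sums, with a log2 difference of 6.19 ± 0.78 (SE, adjusted p = 1.19e-04 in edgeR). Fev passed the threshold under all 18 alternatives.

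Foxa2 was likewise higher in each endocrine class than in Cck-low cells. This forkhead gene (ENSMUSG00000037025, chr2:148042877-148046969, minus strand) was at 37.5, 13.8 and 69.2 CPM in the Gcg class, 11.9, 17.9 and 35.1 CPM in the Gip class and 29.4, 35.8 and 65.1 CPM in the Pzp class. The Cck-low class held 1, 0 and 4 reads of Foxa2. The sums did not overlap, and the fitted log2 difference was 6.88 ± 1.06 (edgeR adjusted p = 6.61e-04), a size that depends on so few reads. Foxa2 passed under 17 of 18 alternatives and missed the threshold without pool SLX-9703.

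Insm1 and St18, the zinc finger genes, also rose without overlap. Insm1 (ENSMUSG00000068154, chr2:146221921-146225020, plus strand) stood at 67.8, 94.5 and 101 CPM in the Gcg class, 71.4, 181 and 43.1 CPM in the Gip class and 87.1, 49.98 and 77.8 CPM in the Pzp class, against 4.20, 7.17 and 6.42 CPM in Cck-low sums. Its log2 difference was 3.09 ± 0.53 (edgeR adjusted p = 0.00182). St18 (ENSMUSG00000033740, chr1:6487231-6860940, plus strand) stood at 43.7, 73.8 and 91.7 CPM in the Gcg class, 38.1, 64.4 and 45.005 CPM in the Gip class and 163.5, 132 and 94.7 CPM in the Pzp class, against 4.59, 14.7 and 6.93 CPM in Cck-low sums. Its log2 difference was 2.43 ± 0.54 (edgeR adjusted p = 0.0111). Insm1 and St18 passed under 16 and 15 of 18 alternatives. Both missed the threshold at a mitochondrial limit of 10%. Insm1 also missed it with cells thinned to 20000 reads, and St18 without pool SLX-11175 or SLX-9703. The highest St18 values were those of the Pzp class, and its lowest, at 94.7 CPM, was above the highest of the Gcg class, at 91.7 CPM, although they overlapped after TMM scaling and the test between them missed the threshold. The share of all genes without overlap as CPM was not counted.

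Neurod1 rose by 1.69 ± 0.44 on the log2 scale (edgeR adjusted p = 0.0283), with the endocrine classes higher in all 3 pools once averaged. It passed under 12 of 18 alternatives, with adjusted p from 1.82e-07 to 0.413. The log2 difference ran from 1.16 to 5.19 and was positive in all 18. Without pool SLX-11175, SLX-11179 or SLX-9703 the adjusted p was 0.0638, 0.120 and 0.175. Without the 7 Cck-low cells of 100000 CPM or more of leukocyte markers, a subset set after the data were seen, it was 0.101.

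Etv1, Sox4 and Foxa1 missed the threshold, and passed under 5 of 18, 2 of 17 and 0 of 17 alternatives. Etv1 (ENSMUSG00000004151, chr12:38779380-38870484, plus strand) was at 202, 262 and 266 CPM in the Gcg class, 38.1, 80.6 and 48.8 CPM in the Gip class, 161, 212 and 148 CPM in the Pzp class and 9.56, 38.6 and 1.45 CPM in Cck-low sums. Its log2 difference from Cck-low was 2.27 ± 0.72 (edgeR adjusted p = 0.0724). Sox4 (ENSMUSG00000076431, chr13:28948919-28953713, minus strand) shares 54.6% of its exon bases with the antisense lincRNA Gm26735. Its sums in the Gcg class were 7.14, 15.6 and 11.2 CPM, and the log2 difference was 2.75 ± 1.26 (edgeR adjusted p = 0.221). Foxa1 (ENSMUSG00000035451, chr12:57540628-57546916, minus strand) was at 7.14, 6.26 and 8.34 CPM in the Gcg class, 0, 0 and 1.09 CPM in the Gip class and 1.18, 0.617 and 13.1 CPM in the Pzp class, against 3.44, 3.07 and 0.513 CPM in Cck-low sums. After TMM scaling the Cck-low sums were 10.4, 5.56 and 0.335 CPM, and the fitted log2 difference of the 3 endocrine classes was -1.14 ± 1.27 (edgeR adjusted p = 0.675).

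**Figure D2:**
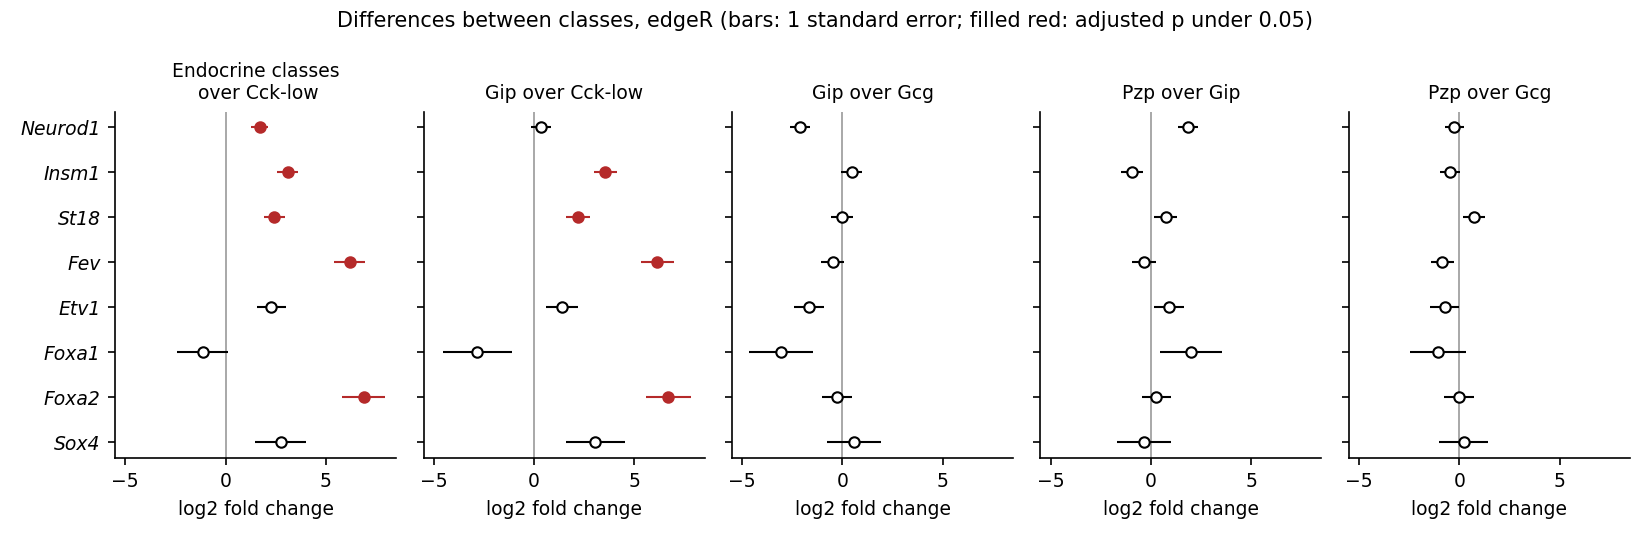
Log2 fold change of each tested factor in 5 comparisons of classes, with bars of 1 standard error, filled where the edgeR adjusted p was under 0.05. Filled points appear only against the Cck-low class, with Fev at 6.19 and Foxa2 at 6.88 in the comparison of the endocrine classes with it.

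The Cck-low class was itself mixed, and most reads of these factors in it came from few cells. In 10 of its 49 cells the 6 enteroendocrine markers summed to 1000 CPM or more, a line drawn after the data were seen. By pool those cells held 81.2%, 96.1% and 97.1% of the Neurod1 reads of the class, 81.8%, 100% and 96% of the Insm1 reads and 41.7%, 97.7% and 96.3% of the St18 reads. For Etv1 the shares were 48%, 77.9% and 47.1%. In the deep pool they came from 1 cell, which gave 872 of the 1254 Neurod1 reads of the whole class. The 7 cells rich in leukocyte markers held no read of Neurod1, Insm1, St18 or Fev. Leaving out the 10 cells takes most reads of these factors from the Cck-low sums, so the larger differences that follow are set by the choice of cells. Of the 8 members 7 then passed, where the share of all genes called was 13.4% as against 6.63% with the cells kept. In the deep pool, 1 of the 6 Cck-low cells stood at 677 CPM of Neurod1 while the median of the 6 was 2.55 CPM.

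Neurog3 was not detected. The gene (ENSMUSG00000044312, chr10:62133090-62134763, plus strand, 16.3% of its exon bases shared with Fam241b on the other strand) had 0 reads in all 288 cells. Over the 142 cells of the Gcg, Gip and Pzp classes, a count of 0 leaves room for 2.11% of cells with a read, counting error only, and it was too low to be tested.

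Among the endocrine classes, the sums of Neurod1 and Etv1 were lowest in the Gip class. Set against the Gcg class, the Gip class showed 0 of 8 members called by edgeR, 2 at an unadjusted p under 0.05 (Neurod1 and Etv1), 1 by DESeq2 and 3 by limma. Over all genes 0.55% were called by edgeR, 3.98% by DESeq2 and 12% by limma. Neurod1 differed by -2.11 ± 0.50 on the log2 scale (edgeR adjusted p = 0.0723), lower in all 3 pools. The groups did not overlap, as CPM or after TMM scaling. Across 18 alternatives its adjusted p ran from 3.40e-04 to 0.553, and the difference from -3.84 to -1.69. Etv1 differed by -1.65 ± 0.75 (edgeR adjusted p = 0.385), also without overlap. In the Gip class the Gip gene itself took 28.1%, 44.5% and 37.9% of the reads, which lowers the CPM of every other gene there. Without hormone and mitochondrial reads the Neurod1 difference was -2.13 ± 0.50 (edgeR adjusted p = 0.0780). Goblet markers moved with the same classes. The 5 of them together were at 929 to 2004 CPM in the Gcg class, 23.8 to 209 CPM in the Gip class, with Muc2 and Clca1 at 0, and 8414 to 11112 CPM in the Pzp class, with Clca1 at 0. Agr2, a protein-folding factor of goblet cells, was called in Gip against Gcg (log2 difference -6.77 ± 0.85, edgeR adjusted p = 6.50e-04). The 8 enterocyte markers together were at 1834 to 3019, 737 to 1158 and 2562 to 3485 CPM in the Gcg, Gip and Pzp classes. The part of these markers in the differences of Neurod1 and Etv1 was not tested.

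Insm1, St18 and Foxa2 showed smaller differences between the Gip and Gcg classes, at 0.48 ± 0.52, -0.01 ± 0.55 and -0.27 ± 0.73 on the log2 scale, and Fev one of -0.48 ± 0.58. Sox4 differed by 0.56 ± 1.34. None of these passed the edgeR test, and at 3 sums a class the standard errors leave room for changes of this size in either direction. For Fev, limma on the mean of single-cell log2 values gave -2.62 ± 0.63 and called it (adjusted p = 0.00844). For Insm1 limma gave -1.64, opposite in sign to the sums, and did not call it. In the deep pool the median Gip cell was below the median Gcg cell for Insm1 (24.8 against 76.2 CPM). The same held for St18 (35.04 against 64.9 CPM) and Foxa2 (1.56 against 39.7 CPM). Foxa1 had 0, 0 and 15 reads in the Gip class, with no overlap after TMM scaling and a fitted log2 difference of -3.05 ± 1.61 (edgeR adjusted p = 0.467), a size that depends on so few reads. A count of 0 allows 7.14 and 5.37 CPM in the Gip sums of the first 2 pools, so the difference from the Gcg class was not detectable at this depth in SLX-11175.

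Against Cck-low cells 4 of the factors were higher in the Gip class, in a comparison added after the data were seen in which 5.79% of all genes were called and 2.42% were called higher. Fev was higher by 6.15 ± 0.83, Foxa2 by 6.70 ± 1.12, Insm1 by 3.56 ± 0.59 and St18 by 2.18 ± 0.60 on the log2 scale (edgeR adjusted p = 4.42e-04, 0.00258, 0.00246 and 0.0423). For Neurod1 the difference was 0.36 ± 0.49 (edgeR adjusted p = 0.727), and over 18 alternatives it ran from -0.28 to 3.66. It was called by limma and, at 3.66, without the 10 Cck-low cells that hold most of the Neurod1 reads of that class. Etv1, Sox4 and Foxa1 differed by 1.41 ± 0.80, 3.05 ± 1.48 and -2.82 ± 1.72, which missed the threshold. St18 passed in only 8 of 18 alternatives and was lost without any 1 pool, while Insm1, Foxa2 and Fev passed in 15, 15 and 17. With cells thinned to 20000 reads none of the 4 passed. All comparisons of the Gip class share its 3 sums. The mean of the endocrine classes also contains these sums and was set against the same Cck-low sums. The calls repeated here are therefore not independent of those for the endocrine classes.

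The Pzp class was set against the Gip and Gcg classes in the same fit. Against Gip, 0 of 8 members were called by edgeR, 1 at an unadjusted p under 0.05, 1 by DESeq2 and 2 by limma, where 1.73%, 6.08% and 19% of all genes were called by edgeR, DESeq2 and limma. Limma's 2 members are thus near its share over all genes. Neurod1 was higher in the Pzp class by 1.86 ± 0.49 on the log2 scale (edgeR adjusted p = 0.0735), higher in 3 of 3 pools with no overlap. The goblet markers Agr2 and Tff3 and the enterocyte markers Sis and Fabp2 were called higher in the same comparison, by 8.67, 4.82, 1.77 and 2.82, and Rbp2 differed by -3.44 (edgeR adjusted p = 5.18e-05 to 0.0452). Etv1 was higher in the Pzp class by 0.92 ± 0.75, also with no overlap. Insm1, St18, Fev, Foxa1, Foxa2 and Sox4 differed by -0.94 ± 0.53, 0.74 ± 0.56, -0.36 ± 0.60, 2.00 ± 1.54, 0.27 ± 0.73 and -0.35 ± 1.35. Their sums overlapped after TMM scaling, while as CPM those of St18 were higher in the Pzp class without overlap. Gip reads lower the CPM of other genes in the Gip class, and the share of all genes without overlap as CPM was not counted. Against Gcg, 0 of 8 members were called by edgeR, 0 at an unadjusted p under 0.05, 0 by DESeq2 and 0 by limma, where 0.0466%, 0.746% and 1.04% of all genes were called. Neurod1 differed there by -0.25 ± 0.47, Fev by -0.84 ± 0.58, Etv1 by -0.73 ± 0.73 and St18 by 0.73 ± 0.55. The others, Insm1, Foxa1, Foxa2 and Sox4, differed by -0.46 ± 0.52, -1.05 ± 1.40, -0.0085 ± 0.73 and 0.22 ± 1.23. Fev and Etv1 were lower in the Pzp class in all 3 pools after TMM scaling with no overlap, as were 6.96% of all genes, while their CPM values overlapped.

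Pzp cells differ in Tph1, the enzyme that starts serotonin synthesis, and Fev is the serotonin-neuron factor, so the class was split at 100 CPM of Tph1. Fev was at 65.1, 31.999 and 86.8 CPM in Tph1-high cells and 120, 50.2 and 121 CPM in Tph1-low cells. It was lower in the Tph1-high cells of each pool, by 0.74 ± 0.43 on the log2 scale as fitted (edgeR adjusted p = 1.00). Foxa2 was at 50.4, 39.998 and 72.6 CPM in Tph1-high cells against 2.68, 33.1 and 33.4 CPM in Tph1-low cells, a log2 difference of 1.35 ± 0.80. By pool, 8, 8 and 22 cells were Tph1-high and 6, 14 and 6 Tph1-low. The Tph1-low value of Foxa2 in SLX-11175 rests on very few reads. Over 8 alternatives the Foxa2 difference ran from 0.63 to 1.97. Neurod1, Insm1, St18 and Etv1 differed by -0.067 ± 0.37, -0.073 ± 0.48, 0.17 ± 0.38 and -0.56 ± 0.36, and Foxa1, Sox4 and Neurog3 were too low to be tested. Of 6 members tested, 0 were called by edgeR, 0 by DESeq2 and 0 had an unadjusted p under 0.05, where 0.0151% and 0.105% of 6642 genes were called by edgeR and DESeq2.

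Single cells of the deep pool gave the spread behind these sums. Neurod1 had a median of 819 CPM in 19 Gcg cells (81.9 to 2413), 1215 CPM in 28 Pzp cells (108 to 2209), 998.7 CPM in 24 Cck cells (5.23 to 2714) and 74.1 CPM in 10 Gip cells (10.9 to 259). The Gip cells thus overlapped the lower end of the other classes cell by cell. Etv1 had medians of 232, 132, 64.4 and 15.4 CPM in the Gcg, Pzp, Cck and Gip classes of that pool. Fev had medians of 114, 85.7, 74.4 and 19.8 CPM, and Insm1 of 76.2, 67.6, 63.7 and 24.8 CPM, in the same order. Foxa2 was at 39.7, 31.2, 0.217 and 1.56 CPM, so that its sums in Cck and Gip cells came from few cells. In the Gip class only 2 of 10 deep cells held Foxa2 at 10 CPM or more, and the highest had 145 CPM. The Sox4 sum of the deep Gip class, 41.4 CPM, also rested on 1 cell at 737 CPM.

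**Figure D3:**
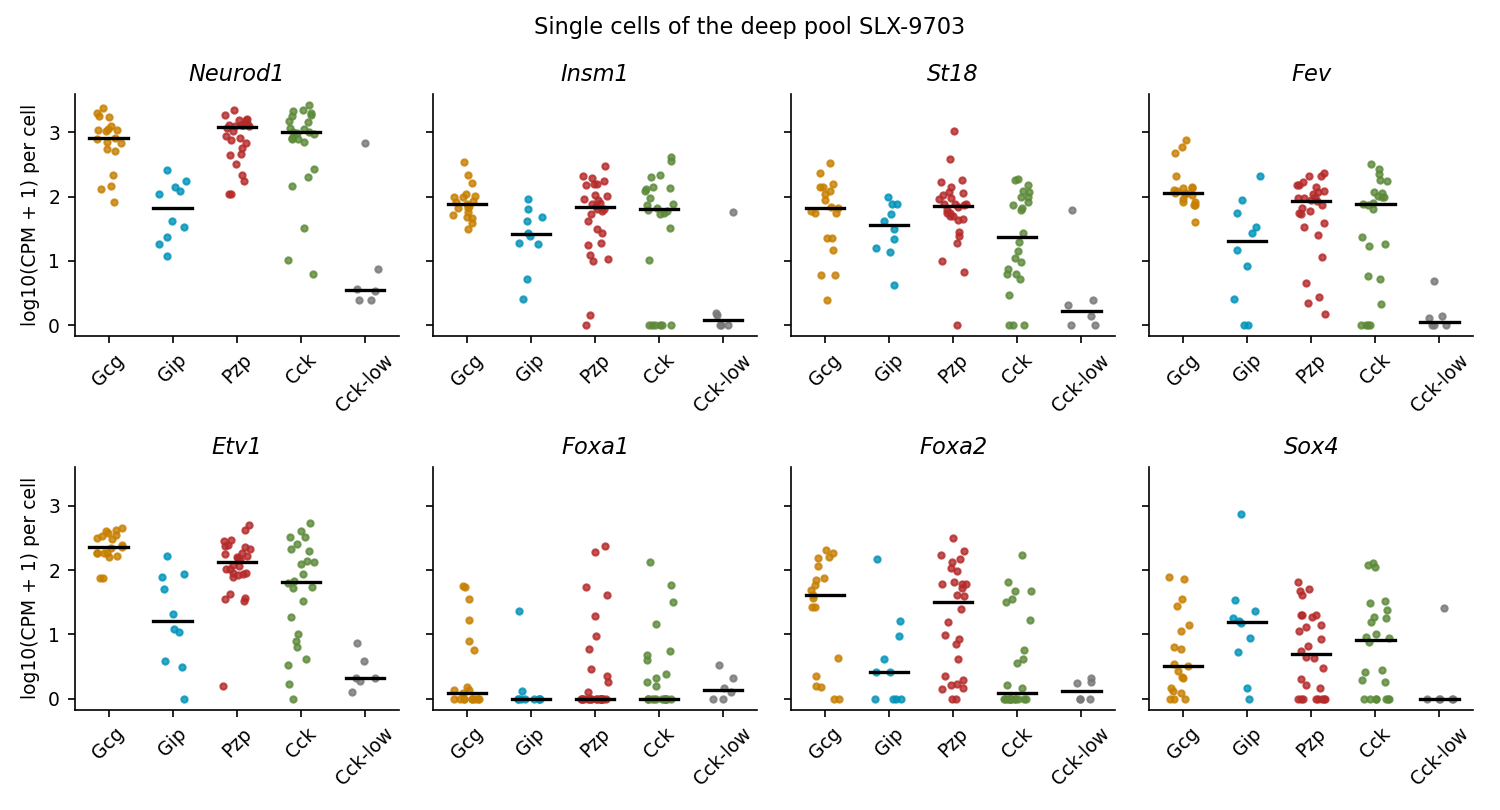
Single cells of the deep pool SLX-9703, log10(CPM + 1) of each factor by class, with the median as a black line. The medians of Neurod1 lie at 819 CPM in Gcg cells and at 74.1 CPM in Gip cells, and all Cck-low cells but 1, at 677 CPM, lie at the low end.

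Of the members at 10 CPM or more, a deep cell held a median of 6 in the Gcg class (range 5 to 8), 6 in the Pzp class (4 to 7), 5 in the Cck class (0 to 7), 5 in the Gip class (3 to 7) and 0 in the Cck-low class (0 to 4). Each deep Gcg, Gip and Pzp cell thus held several of the factors at once.

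Depth differed between pools, so detection was also compared with every cell thinned to 20000 reads, where 142 cells of the Gcg, Gip and Pzp classes had a Neurod1 read in 88.7% and, unthinned, in 96.5%. By class the thinned shares for Neurod1 were 96.2% in Gcg, 95.3% in Pzp, 92.6% in Cck, 56% in Gip (95% Clopper-Pearson interval 34.9% to 75.6%) and 24.5% in Cck-low cells (13.3% to 38.9%). Etv1 was found in 92.5%, 76.6%, 74.1%, 52% and 34.7% of cells in that order. For Fev the shares were 69.8%, 48.4%, 48.1%, 32% and 6.12%. The Gip share lay above the Cck-low share for each, but the intervals of the 2 classes overlapped for all 3 genes. Insm1 was found in 66% of Gcg cells (51.7% to 78.5%), 50% of Pzp cells, 53.7% of Cck cells, 36% of Gip cells (17.97% to 57.5%) and 10.2% of Cck-low cells. By pool the Insm1 shares were 30%, 60% and 30% of Gip cells against 56.25%, 55.6% and 84.2% of Gcg cells, so the order turned in SLX-11179, where the Gip class had 5 cells. St18 was found in 60% of Gip cells (38.7% to 78.9%), 62.3% of Gcg cells (47.9% to 75.2%), 56.25% of Pzp cells and 16.3% of Cck-low cells. Foxa2 was found in 39.1% of Pzp cells and 0 of 49 Cck-low cells, which at the thinned depth allows up to 6.12% of cells with a read. Unthinned, 4 of the 49 had a Foxa2 read (8.16%). Also unthinned, Fev was at 10 CPM or more in 60% of the Gip cells of SLX-11179. The shares there were 77.8% of Gcg, 59.1% of Pzp and 50% of Cck cells. At this limit the pooled order of Fev thus did not hold in SLX-11179, while the Gip share was the lowest of these classes in the other pools. Reads without molecular identifiers are not independent molecules, so the intervals and limits cover counting error only.

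**Figure D4:**
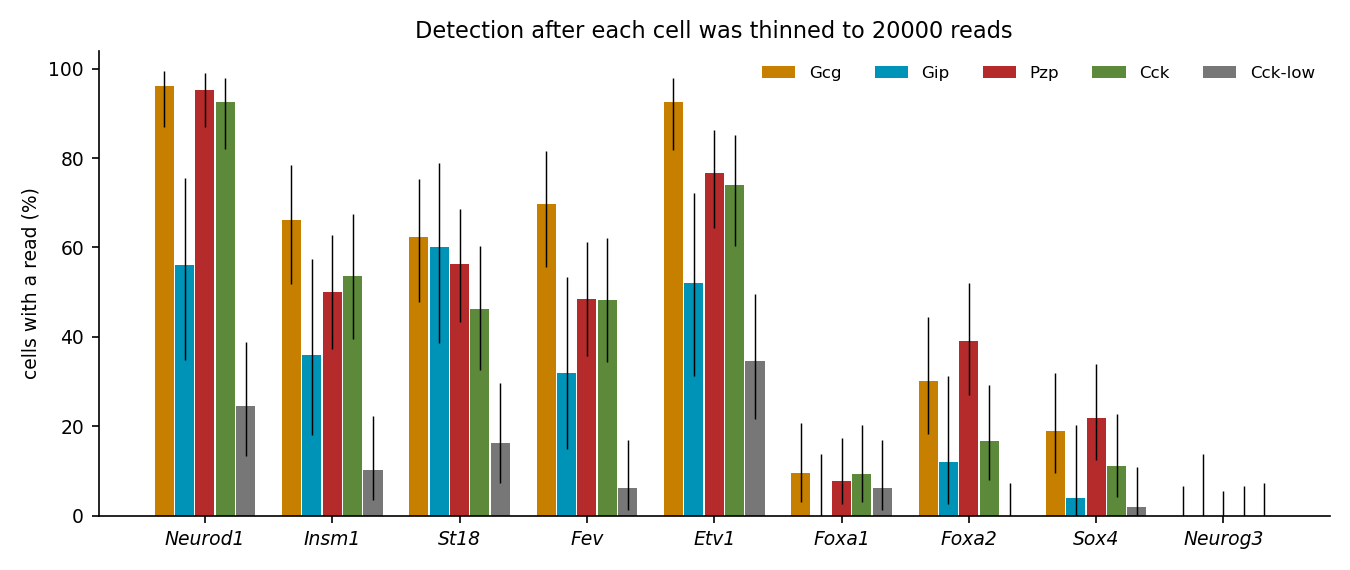
Share of cells with at least 1 read of each factor after each cell was thinned to 20000 reads, by class over all pools, with 95% Clopper-Pearson intervals. Neurod1 was found in 96.2% of Gcg cells and 56% of Gip cells, St18 in 62.3% and 60%, and Neurog3 in no cell.

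Per kilobase of exon the order of the members in the Gcg class was Neurod1 at 268 ± 81.7 CPM per kb (SD over 3 pools), Fev at 75.6 ± 34.7, Insm1 at 28.3 ± 5.68, Etv1 at 18.3 ± 2.72, Foxa2 at 16.9 ± 11.7, St18 at 10.8 ± 3.75, Sox4 at 2.37 ± 0.886 and Foxa1 at 2.18 ± 0.314. Neurod1 and Fev stood apart from the others by more than their SDs. Insm1 and Etv1 also differed by more than their SDs, while Etv1 and Foxa2, Foxa2 and St18, and Sox4 and Foxa1 did not. In the Gip class Neurod1 (47.4 ± 29.9), Fev (36.98 ± 19.3) and Insm1 (31.7 ± 23.5 CPM per kb) were not apart beyond their spread.

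Across the 88 passing cells of the deep pool, the genes most like Neurod1 among 13235 by Pearson's r of log2(CPM + 1) were Tm4sf4 (r = 0.86), Scg2 (0.83) and Sis (0.82). Their r was 0.77 to 0.86 in the other pools, and 0.67 to 0.73 in the cells of the Gcg, Gip and Pzp classes of the deep pool. These cells share a mouse, a library batch and differences in depth, so all r values are descriptions. Scg2 is a granule protein of endocrine cells and Sis a brush-border sucrase. For Insm1 the closest were Scg5 (0.75), Cpe (0.73) and Scg3 (0.72), all genes of peptide secretion, with r of 0.40 to 0.59 in the other pools and 0.38 to 0.42 within the endocrine classes of the deep pool. For St18 they were Cryba2 (0.68), Gng4 (0.65) and Hepacam2 (0.64), with 0.19 to 0.51 in the other pools and 0.24 to 0.39 within those classes. For Fev they were 5330417C22Rik (0.71), Cpe (0.67) and Scgn (0.67), with 0.46 to 0.65 in the other pools and 0.51 to 0.57 within the classes. For Etv1 they were the processed pseudogene Gm5454 on chromosome 13 (0.84), 5330417C22Rik (0.75) and Scg2 (0.73), with 0.42 to 0.70 in the other pools and 0.84, 0.53 and 0.50 within the classes. Foxa1, Foxa2 and Sox4 had no gene above 0.50, and the genes closest to Foxa1 and Sox4 had r of -0.10 to 0.28 in the other pools.

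The members' r with each other in the deep pool was highest for Neurod1 with Etv1 (0.64) and Neurod1 with Insm1 (0.61), and was 0.49 and 0.21 within the 3 endocrine classes.

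The 5 cells that met more than 1 class condition were 4 with Gcg and Gip and 1 with Gcg and Pzp. Their Neurod1 levels were 18.99, 298, 592 and 521 CPM in the Gcg and Gip cells and 218 CPM in the other. In the deep cell of this kind, at 135588 CPM of Gcg and 11717 CPM of Gip, Neurod1 was above all 10 deep Gip cells.

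Other genes of the same families and pathway, from lists chosen with earlier results of these data known, varied in how they went with the members. Their counts stand beside 6.63% of all genes called over Cck-low, 0.55% in Gip over Gcg and 1.73% in Pzp over Gip. Of 8 tested among 11 other enteroendocrine factors, 4 rose and none fell in the endocrine classes over Cck-low (median log2 difference 2.68), among them Isl1 by 3.72 ± 0.87, Pax4 by 8.39 ± 2.00 and Pax6 by 2.00 ± 0.57 (edgeR adjusted p = 0.0158, 0.0171 and 0.0443). Between Gip and Gcg classes, Rfx6, a factor of endocrine lineages, rose by 4.79 ± 0.90 (edgeR adjusted p = 0.0205), opposite in sign to the difference of Neurod1. Of 12 tested of 15 bHLH partners, inhibitors and Notch genes, 1 rose and none fell over Cck-low, the Notch ligand Dll4 by 5.96 ± 1.43 (edgeR adjusted p = 0.0181), a share close to that over all genes. Id2, an inhibitor that binds bHLH partners, fell by 2.59 on the log2 scale in Gip against Gcg (SE 0.47, edgeR adjusted p = 0.0156), from a mean of 383 to 47.2 CPM. In Pzp over Gip, Id1 and Id2 rose by 2.89 ± 0.66 and 3.17 ± 0.47 (edgeR adjusted p = 0.0349 and 0.00218). Of 9 tested of 23 family relatives, 1 rose and 1 fell over Cck-low: Sox6 by 6.44 ± 1.73, and the epithelial ETS gene Ehf with a log2 difference of -4.95 ± 1.00 (edgeR adjusted p = 0.0339 and 0.00637). The sizes for Pax4, Dll4 and Sox6 depend on very few Cck-low reads. The Cck-low sums were 0, 0 and 0.0855 CPM for Pax4, 0.7645, 0 and 0.0855 CPM for Dll4 and 0.382, 0 and 0 CPM for Sox6. Of 12 endocrine secretory genes, 4 rose and none fell over Cck-low (median 2.35), Scg2, Chgb, Scg5 and Cpe by 3.73, 3.75, 2.21 and 2.49 (edgeR adjusted p = 1.46e-04 to 0.0368). In Gip against Gcg, 1 of them passed, Scg2, which fell by 2.35 on the log2 scale (edgeR adjusted p = 0.0385), while Chga and Chgb differed by -2.88 and -2.60 and missed the threshold (edgeR adjusted p = 0.101 and 0.0955).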

How the data were processed

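The study sorted single cells of the mouse upper small intestine into wells and made Smart-seq2 libraries, which carry no molecular identifiers and no strand. The deposited values are raw counts of reads for each gene in each cell, as they stood before the authors normalized them for their own analysis. According to the submitters' processing notes reads were aligned with GSNAP to mm10 and counted with HTSeq (0.5.3p3). Lines that name no gene held 77.6% of all counts and were left out, as were 4 columns that match no sample. Identifiers were matched to GENCODE M21 (45143 of 46078).

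Cells of 20000 reads or more and at most 20% mitochondrial reads were summed per pool and class, with at least 3 cells per sum. No doublet caller was run. Sums were tested with edgeR 4.0.16 (quasi-likelihood test, TMM, filterByExpr, the pool as a block), with Benjamini-Hochberg adjustment over all genes tested. The SE of a log2 fold change was derived from its test statistic. Shared pools gave the block: deviations of sums of the same pool correlated with a median r of 0.10 (30 pairs, lowest 0.02) against -0.10 between pools (60 pairs). With the level of each pool taken out by the block, the p-values measure how the class differences vary between pools. DESeq2 1.42.0 and limma 3.58.1 (on log2(CPM + 1)) served as alternatives, with other filters, scalings and class limits, and each pool left out in turn. The script was checked on simulated data. The rule for naming genes took all 9 members in every comparison, and of each gene list up to 4 called genes with the smallest p, which are given for the comparisons where the lists are described. The values of 1 listed gene are not reported here. Members, lists and classes were chosen with earlier results of these data known.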

Additional observations from a re-analysis of the deposited data

How the results depend on the processing

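Over Cck-low, DESeq2, no filter and spike-ins each called 6 members in the endocrine classes and limma 7. Of all 10724 genes tested, DESeq2, spike-ins and limma called 1607, 716 and 1673, where the main fit called 711. With no filter 2088 of 31172 genes were called. With each pool left out in turn, the members called in the endocrine classes over Cck-low were 2 to 4, in Gip over Cck-low 2 to 3, and 0 in the comparisons between endocrine classes. Of 9900 to 15036 genes tested, 265 to 823 were then called over Cck-low and 128 to 284 in Gip over Cck-low. Between endocrine classes 1 to 69 genes were called. A mitochondrial limit of 10% left 2 over Cck-low and 2 for Gip over Cck-low, and thinning to 20000 reads 3 and 0 (Neurod1 -0.28 in the latter). Calls over all genes fell as well. The 10% limit called 305 and 197 of 10681 genes in these comparisons, against 711 and 621 of 10724 in the main fit. Thinning called 305 and 246 of 4922 genes, with 6 members tested. Without the Cck-low cells of endocrine markers, Gip over Cck-low had 7, with 1127 of 10729 genes called, and Foxa1 in the endocrine classes over Cck-low became 1.03. In Gip over Gcg, DESeq2, no filter and thinning each called 1 and limma 3, and in Pzp over Gip, DESeq2, no filter, thinning and spike-in scaling each called 1 and limma 2. The cause was not tested. Over all genes, the main fit called 59 and 185 of 10724 in these 2 comparisons. No filter called 247 and 426 of 31172, and thinning 121 and 240 of 4922. Spike-in scaling called 308 of 10724 in Pzp over Gip. With no replicate block the pairing of classes within pools was dropped: 5 members were called over Cck-low, 3 in Gip over Cck-low and 0 in the other comparisons. Of 10724 genes, 678 were then called over Cck-low and 502 in Gip over Cck-low. In Pzp over Gcg, Gip over Gcg and Pzp over Gip 5, 44 and 153 were called, and in the Tph1 split 1 of 6642. Directions turned only in log2 differences that missed the threshold. For Pzp over Gcg, Foxa2 became 0.026 (DESeq2), 0.042 (no filter), 0.097 (50000 reads), 0.042 (class limits divided by 2), 0.046 (spike-ins) and 0.41 (limma), and Neurod1 0.0011 (limma). For Gip over Gcg, St18 became 0.11 (DESeq2), 0.019 (10000 reads), 0.15 (thinned) and 0.070 (class limits times 2), Insm1 -0.084 (thinned) and -1.64 (limma), and Sox4 -0.83 (750000 reads in the deep pool) and -0.39 (spike-ins). For Pzp over Gip, Fev became 0.35 (thinned), 0.50 (spike-ins) and 1.56 (limma), Sox4 1.02 (750000 reads) and 0.85 (spike-ins), and Insm1 0.58 (limma). In the Tph1 split, Neurod1 became 0.0076 and Insm1 0.011 with no filter, and St18 -0.81 at 200 CPM of Tph1. Leaving out each pool, Foxa1 over Cck-low ran from -3.22 to 0.20, Foxa2 in Pzp over Gcg from -0.36 to 0.23, Insm1, St18 and Sox4 in Gip over Gcg from -0.013 to 0.97, -0.34 to 0.21 and -1.14 to 1.32, Fev and Sox4 in Pzp over Gip from -0.85 to 0.18 and -1.12 to 1.43, and Neurod1, Insm1 and St18 in the Tph1 split from -0.58 to 0.30, -0.38 to 0.37 and -0.095 to 0.42. The 750000-read limit, both Cck-low subsets and Gip over Cck-low were added after the data were seen. Depth limits the shallow pools: 3 reads, the count a value of 0 allows, equal 7.14 CPM in the Gip sum of SLX-11175 and 0.218 CPM in that of SLX-9703.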
